A study of Mus musculus with 9 samples.

Results

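The core circadian clock genes described here are the 10 genes Arntl, Clock, Npas2, Per1, Per2, Per3, Cry1, Cry2, Nr1d1 and Nr1d2, taken by gene symbol from the 20325 genes measured in each liver. All 10 were listed in all 9 libraries, and 9 of them passed the filter on low counts that left 12037 genes for testing. Npas2 did not pass it. The livers came from male C57BL/6J mice on chow, 3 per group. GF mice were germ-free. GF+SCFA mice were germ-free and received the short-chain fatty acids acetate (67.5 mM), propionate (25.9 mM) and butyrate (40 mM) in their drinking water. ConvD mice were germ-free mice colonized by gavage at 15 weeks of age with cecal contents of conventionally raised donors, and were kept for 4 weeks more. The labels disagree on age, with 14 weeks in the design text and 19 weeks at dissection in the protocol. All mice lived under 12 h of light and 12 h of dark. The sources used here give no time of day of dissection, and mice were housed together by colonization status, so group and cage cannot be told apart. The labels do not tie the libraries to named animals, so the p-values cover the spread among these libraries, which may in part be technical. Between pairs of libraries of a group, the chi-square of the counts per degree of freedom was 11.1 to 53.5, more than counting error alone would give.

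The mammalian clock is a feedback loop of transcription. ARNTL (also called BMAL1) pairs with CLOCK or NPAS2 and binds E-boxes to switch on the Per, Cry and Nr1d genes; PER and CRY proteins then block ARNTL and CLOCK, while NR1D1 and NR1D2 (REV-ERB alpha and beta) repress Arntl, Npas2 and Cry1 through ROR elements. In mouse liver Arntl and Npas2 transcripts are known to peak around dawn, Nr1d1 around midday, Nr1d2 and Per3 soon after, Per1 and Per2 around dusk, and Cry1 late in the night. Peak times therefore differ among these genes, so a different phase of the whole clock at the time of sampling would raise some clock genes and lower others. Changes in the level of single genes could do the same. No peak time is named here for Clock and Cry2, which are also placed in the order used below.

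Short regulatory sequences of this loop are printed for 5 clock genes and 1 partner gene, from RefSeq windows of the GRCm38.p6 build that run from 250 bases before to 50 after a transcription start. The deposited values were made on the older mm9 build, and only the sequences and the gene overlaps named below rest on GRCm38.p6. Of the 10 clock genes, 9 had a window (13 windows, since some genes have several starts) among 32851 in the table. Per2 is named only. The motifs searched on both strands were the E-box CACGTG (in 7.15% of all windows), the E-prime box CACGTT (4.68%), the D-box TTANGTAA (2.32%), the ROR element TAGGTCA (2.61%), the CRE TGACGTCA (1.79%) and the palindromic glucocorticoid response element (0.00913%). Positions count from the start, with -1 the base just before it, and give the first base of the match. A match describes letters in this window and shows no binding. Capitals mark the motif as it reads on the gene's strand, and each sequence runs 5′ to 3′ on that strand. Cry1 (chr10:85185055-85185304, minus strand) has an E-box at -60 and an E-prime box, read on the other strand, at -79. Nr1d1 (chr11:98775378-98775627, minus strand) has an E-prime box, also read on the other strand, at -28. Per1 (chr11:69098699-69098948, plus strand) has an E-box at -166, and Per3 (chr4:151044666-151044915, minus strand) has D-boxes at -205 and -158. Arntl (chr7:113207527-113207556, plus strand, 30 bases) has a ROR element that begins at base 31 after the second of its annotated starts. The partner gene Nfil3 (chr13:52981040-52981099, minus strand, 60 bases) has a ROR element, read on the other strand, at -12.
Cry1: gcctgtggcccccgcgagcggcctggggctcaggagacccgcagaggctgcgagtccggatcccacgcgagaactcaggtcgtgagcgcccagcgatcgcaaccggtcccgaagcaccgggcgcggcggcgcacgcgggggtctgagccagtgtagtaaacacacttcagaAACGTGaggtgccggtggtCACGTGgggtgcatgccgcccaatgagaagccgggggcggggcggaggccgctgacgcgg
Nr1d1: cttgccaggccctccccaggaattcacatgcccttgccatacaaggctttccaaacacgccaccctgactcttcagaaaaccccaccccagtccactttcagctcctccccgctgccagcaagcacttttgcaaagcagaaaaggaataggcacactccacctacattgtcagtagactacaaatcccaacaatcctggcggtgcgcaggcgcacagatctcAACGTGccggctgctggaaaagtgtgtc
Per1: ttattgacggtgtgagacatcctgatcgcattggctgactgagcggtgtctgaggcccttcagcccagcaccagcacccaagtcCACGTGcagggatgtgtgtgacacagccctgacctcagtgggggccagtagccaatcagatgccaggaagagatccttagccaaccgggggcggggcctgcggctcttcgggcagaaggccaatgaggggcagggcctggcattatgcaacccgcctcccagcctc
Per3: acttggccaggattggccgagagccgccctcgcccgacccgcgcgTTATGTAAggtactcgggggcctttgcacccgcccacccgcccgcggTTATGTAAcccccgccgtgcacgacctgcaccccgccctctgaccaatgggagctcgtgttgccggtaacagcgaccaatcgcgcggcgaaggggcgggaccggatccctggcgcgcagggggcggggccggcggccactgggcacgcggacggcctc
Arntl: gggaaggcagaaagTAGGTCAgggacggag
Nfil3: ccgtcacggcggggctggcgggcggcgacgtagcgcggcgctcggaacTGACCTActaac
Of the 13 windows, 2 held an E-box, 3 an E-prime box (the other being that of Cry2, read on the other strand, at -166), 1 a D-box, 1 a ROR element and 0 a CRE or glucocorticoid response element.

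The libraries held 18193071 to 21627696 estimated counts. Levels are given in 2 units: TPM, transcripts scaled by gene length and to a common library total, sets genes side by side; CPM, counts scaled to a common library size after TMM (trimmed mean of M values) normalisation, compares groups. Differences are log2 fold changes with their standard error (SE) from edgeR's quasi-likelihood test, and p-values are adjusted over all 12037 genes by the Benjamini-Hochberg method; a gene is called changed at an adjusted p under 0.05. At this threshold 12.8% of all tested genes were called between ConvD and GF, 0.0415% between GF+SCFA and GF, and 18.4% between ConvD and GF+SCFA. Calls were divided nearly evenly between directions between ConvD and GF (46.2% higher), but with library totals in place of TMM 73.1% were higher; between ConvD and GF+SCFA these shares were 51.3% and 72.4%.

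Averaged over the 9 livers, the order of the clock transcripts by TPM was Nr1d2 (32.3), Nr1d1 (20.6), Per1 (13.7), Cry2 (13.6), Per2 (9.02), Per3 (8.07), Clock (5.78), Cry1 (4.12), Arntl (0.643) and Npas2 (0.0322). Neighbours in this order overlapped in their ranges over the livers from Nr1d2 (24.23 to 36.84 TPM) and Nr1d1 (8.23 to 39.95 TPM) down to Per2 (5.87 to 11.98 TPM) and Per3 (6.75 to 10.17 TPM). Clock (4.64 to 6.66 TPM) lay below Per3 in every liver and overlapped Cry1 (1.38 to 6.64 TPM). Arntl, at 0.30 to 1.07 TPM, lay below all of these in every liver, and Npas2 was near the limit of detection.

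**Figure D1:**
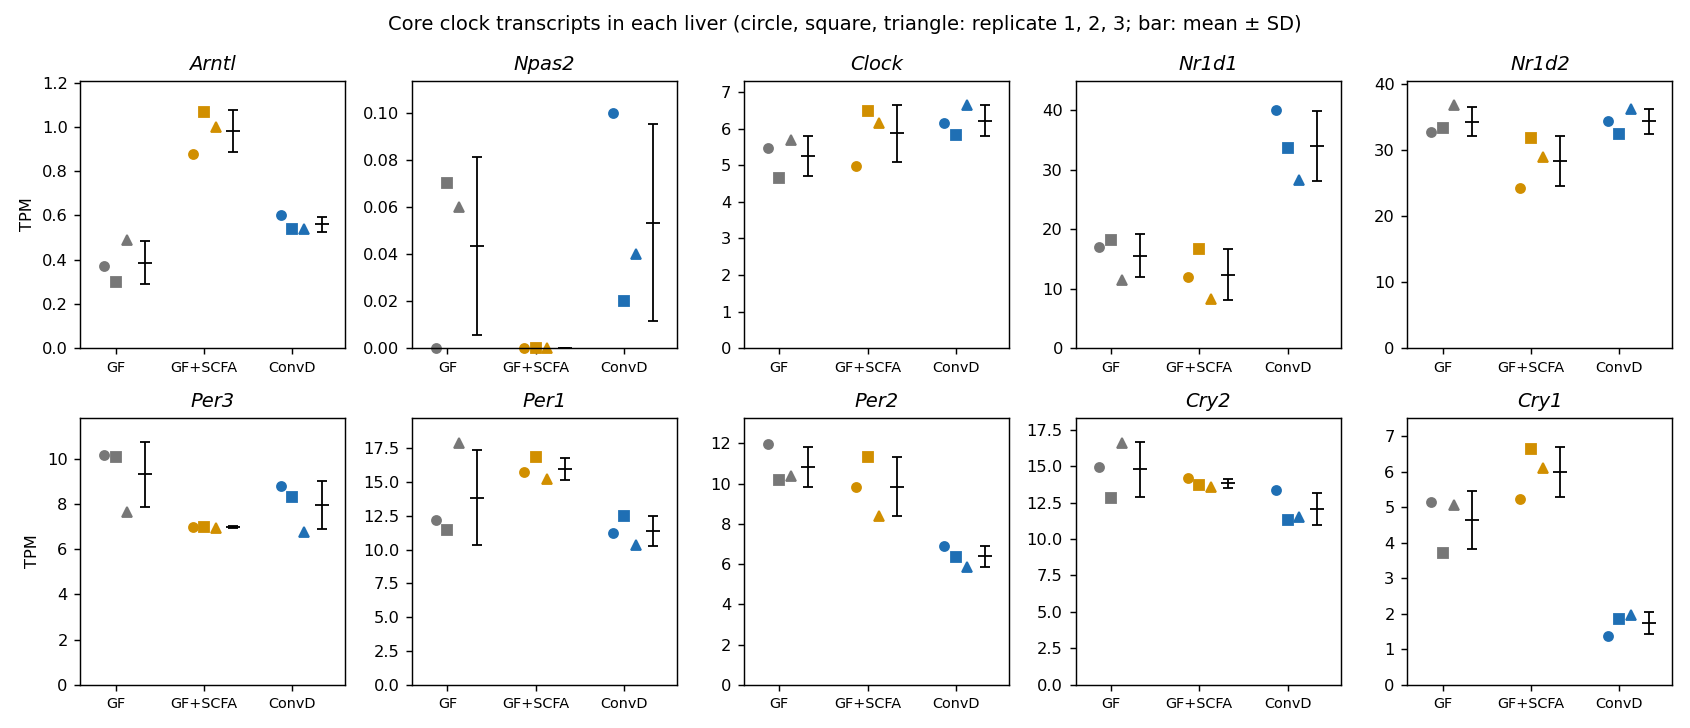
Level of each of the 10 clock genes in each of the 9 livers (vertical axis, TPM, a separate scale for each gene; horizontal axis, group; circle, square and triangle are replicates 1, 2 and 3, bars are mean ± SD, n = 3). Cry1 and Per2 lie lower in all 3 ConvD livers than in the other 6, Nr1d1 lies higher there, and Arntl lies highest in the 3 GF+SCFA livers.

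Between ConvD and GF, 3 of the 9 tested clock genes were called, against 12.8% of all tested genes (5.93% higher, 6.9% lower), and all 3 were lower in ConvD: Cry1, Per2 and Cry2. The median log2 fold change of the 9 was -0.31, where that of all tested genes was 0.00. Their median absolute log2 fold change was 0.34 against 0.17 over all tested genes. Groups did not overlap in CPM for 5 of the 9 (2 higher, 3 lower), against 31.6% of all tested genes (15.7% higher, 15.9% lower). Between GF+SCFA and GF, edgeR called 0 of the 9, against 0.0415% of all tested genes (0.00831% higher, 0.0332% lower); 4 of the 9 had an unadjusted p under 0.05 (12.3% of all tested genes), and DESeq2 called 1 of them, Arntl. Groups did not overlap for 3 of the 9 (2 higher, 1 lower), against 17.9% of all tested genes (9.06% higher, 8.86% lower). Between ConvD and GF+SCFA, 6 of the 9 were called, against 18.4% of all tested genes (9.44% higher, 8.97% lower): Nr1d1 was higher in ConvD, and Arntl, Per1, Per2, Cry1 and Cry2 were lower. The same 6 had groups that did not overlap (38% of all tested genes). These 3 comparisons share their groups pairwise, so they are not independent of each other.

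The activators Arntl, Clock and Npas2 did not share a pattern. Arntl was listed at 0.37, 0.30 and 0.49 TPM in the GF livers, at 0.88, 1.07 and 1.00 TPM in the GF+SCFA livers and at 0.60, 0.54 and 0.54 TPM in the ConvD livers. The 3 groups did not overlap: GF was lowest, ConvD intermediate and GF+SCFA highest. These levels rest on few reads, 12 to 18 rounded counts per GF liver, 30 to 40 per GF+SCFA liver and 19 to 21 per ConvD liver.

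Arntl was 1.86-fold lower in ConvD than in GF+SCFA (log2 fold change -0.90, SE 0.22, adjusted p = 0.0135 by edgeR), a call that was lost without GF+SCFA replicate 2 (adjusted p = 0.0557). The difference between GF+SCFA and GF was the largest of the 9 tested clock genes in that comparison, at a log2 fold change of 1.37 (SE 0.24, 95% interval 0.80 to 1.95), but was not called by edgeR (adjusted p = 0.0646). It was called by DESeq2 (adjusted p = 0.0212), by edgeR with no filter on low counts (0.0372) and without GF replicate 3 (log2 fold change 1.52, adjusted p = 0.0164). For ConvD against GF the log2 fold change was 0.48 (SE 0.26, adjusted p = 0.256), with no overlap between the livers and no call.

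Clock, the partner of ARNTL, ranged from 4.64 to 5.68 TPM in GF, 4.99 to 6.48 TPM in GF+SCFA and 5.82 to 6.66 TPM in ConvD. Its 95% intervals of the log2 fold change were -0.07 to 0.43 between ConvD and GF, -0.07 to 0.43 between GF+SCFA and GF, and -0.25 to 0.24 between ConvD and GF+SCFA, where the sign changed with the scaling and with the liver left out. Npas2, which can take the place of CLOCK, had 0, 4 and 3 rounded counts in the GF livers, 0 in each GF+SCFA liver and 5, 1 and 2 in the ConvD livers. A count of 0 allows up to 3 counts, which is 0.141 to 0.17 CPM in these libraries and covers counting error only. Npas2 was not tested, and its group totals were 7, 0 and 8 counts. The listed counts of the ConvD livers, 1 to 5, lay above the 0 of the GF+SCFA livers. ConvD replicates 2 and 3, at 1 and 2 counts, lay within the 3 counts that a 0 allows, so no separation can be read from them.

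The nuclear receptors Nr1d1 and Nr1d2 are related repressors, and Nr1d1 was the 1 called. Nr1d1 was listed at 16.97, 18.19 and 11.46 TPM in GF, at 12.00, 16.72 and 8.23 TPM in GF+SCFA and at 39.95, 33.60 and 28.30 TPM in ConvD. All 3 ConvD livers lay above the other 6, while GF and GF+SCFA overlapped. Nr1d1 rose in ConvD against GF+SCFA 2.59-fold (log2 fold change 1.37, SE 0.30, adjusted p = 0.0216 by edgeR); the call was lost without GF+SCFA replicate 1 (0.0693), ConvD replicate 1 (0.0667) or ConvD replicate 2 (0.0654).

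The log2 fold change of Nr1d1 in ConvD against GF was 1.04 (SE 0.29, 95% interval 0.33 to 1.75), which edgeR did not call (adjusted p = 0.0631) and DESeq2 did (adjusted p = 0.011). Nr1d1 had a wide spread among livers of the same group, with an SD of log2 CPM of 0.449 in GF, 0.485 in GF+SCFA and 0.178 in ConvD. The median of all tested genes was 0.136, 0.118 and 0.134. In every group the lowest Nr1d1 liver was replicate 3. With a block for replicate number, edgeR called Nr1d1 higher in ConvD than in GF (adjusted p = 0.00158), but the labels do not state that the numbers pair livers. Exons of Nr1d1 overlap those of Thra, a thyroid hormone receptor gene on the opposite strand. The libraries were made with a stranded kit, but the strand setting of the counting is not given in the sources used here. Reads in the overlap may therefore not be told apart. Thra itself was at 6.47 ± 0.17 CPM in GF, 4.51 ± 0.56 CPM in GF+SCFA and 7.28 ± 0.63 CPM in ConvD (SD, n = 3), and was called higher in ConvD than in GF+SCFA (log2 fold change 0.69, adjusted p = 0.00293 by edgeR). Arntl and Cry2 also each overlap a non-coding gene on the opposite strand, Gm45355 and D930015M05Rik.

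Nr1d2 was at 32.81 to 36.84 TPM in GF, 24.23 to 31.77 TPM in GF+SCFA and 32.44 to 36.16 TPM in ConvD. The GF+SCFA livers lay below all GF livers, with a log2 fold change of -0.26 (SE 0.09) that was not called (adjusted p = 0.274). Its 95% interval in ConvD against GF was -0.27 to 0.15, where the sign changed with library totals in place of TMM.

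The 3 Per genes encode the partners of the cryptochromes in repression, and Per2 was the 1 called in both ConvD comparisons. Per2 was listed at 11.98, 10.19 and 10.35 TPM in GF, at 9.84, 11.31 and 8.40 TPM in GF+SCFA and at 6.92, 6.36 and 5.87 TPM in ConvD. Every ConvD liver lay below every other liver, and GF and GF+SCFA overlapped. Per2 was 1.78-fold lower in ConvD than in GF (log2 fold change -0.84, SE 0.10, adjusted p = 0.000353 by edgeR) and 1.64-fold lower than in GF+SCFA (-0.71, SE 0.11, adjusted p = 0.000576). Its 95% interval in GF+SCFA against GF was -0.37 to 0.13.

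Per1, which also responds to glucocorticoids, was listed at 12.21, 11.43 and 17.91 TPM in GF, at 15.73, 16.85 and 15.24 TPM in GF+SCFA and at 11.23, 12.52 and 10.34 TPM in ConvD. In TPM, GF replicate 3 lay above all other livers, and the other 2 GF livers lay among those of ConvD. In CPM these 2 GF livers were at 37.9 and 36.5, where the highest ConvD liver was at 36.5 and the lowest at 30.9. Per1 was 1.49-fold lower in ConvD than in GF+SCFA (log2 fold change -0.58, SE 0.11, adjusted p = 0.00437 by edgeR). Against GF its log2 fold change in ConvD was -0.34 (SE 0.11, adjusted p = 0.0653), and it was called only without GF replicate 2 among the alternatives run (0.0361).

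Per3, the paralogue not required for rhythm in most tissues, was at 7.65 to 10.17 TPM in GF, 6.93 to 7 TPM in GF+SCFA and 6.75 to 8.81 TPM in ConvD. Its log2 fold change was -0.31 between ConvD and GF (adjusted p = 0.148), -0.40 between GF+SCFA and GF (0.277) and 0.10 between ConvD and GF+SCFA (0.654), none of them called by edgeR. GF replicate 3, at 7.65 TPM, was the lowest GF liver. Without it Per3 was called lower than GF in GF+SCFA (log2 fold change -0.57, adjusted p = 0.00738 by edgeR) and in ConvD (-0.47, adjusted p = 0.00516). Leaving out the lowest GF liver widens these differences by itself.

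Of the cryptochromes, the strongest repressors of ARNTL and CLOCK, Cry1 showed the largest fall among the 9 tested clock genes in both ConvD comparisons. Cry1 was listed at 5.16, 3.7 and 5.06 TPM in GF, at 5.23, 6.64 and 6.10 TPM in GF+SCFA and at 1.38, 1.85 and 1.97 TPM in ConvD. The groups did not overlap: ConvD was lowest, GF intermediate and GF+SCFA highest. Cry1 was 2.78-fold lower in ConvD than in GF (log2 fold change -1.48, SE 0.17, adjusted p = 0.00018 by edgeR) and 3.65-fold lower than in GF+SCFA (-1.87, SE 0.17, adjusted p = 1.91e-05). In GF+SCFA against GF its log2 fold change was 0.39 (SE 0.15) and was not called (adjusted p = 0.328).

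Cry2 was listed at 14.93, 12.82 and 16.60 TPM in GF, at 14.18, 13.71 and 13.58 TPM in GF+SCFA and at 13.34, 11.32 and 11.51 TPM in ConvD. ConvD and GF overlapped in TPM but not in CPM (28.2 to 31.3 CPM in ConvD, 34.3 to 39.9 CPM in GF). Cry2 was 1.27-fold lower in ConvD than in GF (log2 fold change -0.34, SE 0.08, adjusted p = 0.014 by edgeR) and was also lower than in GF+SCFA (-0.26, SE 0.08, adjusted p = 0.0335). The first call was lost with library totals (0.0788), with limma on log2 TPM (0.117) and without ConvD replicate 2 (0.0628), and the second was lost in 8 of 17 alternatives, among them leaving out any 1 of the GF+SCFA livers or ConvD replicate 2 or 3.

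Set in the textbook order of peak times, the clock genes did not move in 1 direction. In ConvD against GF the log2 fold change was 1.04 for the midday gene Nr1d1, -0.06 for Nr1d2 and -0.31 for Per3. It was -0.34 for Per1, -0.84 for Per2 and -1.48 for the late-night gene Cry1, while the dawn gene Arntl stood at 0.48. Clock and Cry2, for which no peak time is named here, stood at 0.18 and -0.34. Of all these only Per2, Cry1 and Cry2 were called. Against GF+SCFA the midday gene Nr1d1 rose in ConvD, and the called genes of dusk, of late night and of dawn fell, as did Cry2. In GF+SCFA against GF the 2 largest log2 fold changes above 0 were those of Arntl and Cry1, and Nr1d1, Nr1d2 and Per3 stood between -0.26 and -0.40, with no call by edgeR. So both directions occurred among the called genes between ConvD and GF+SCFA, while between ConvD and GF the called genes were all lower and Nr1d1 was higher in all 3 livers without a call. With 1 sample per liver and no stated time of dissection, whether the groups were taken at the same time of day is not known from these sources. Different times of dissection, a shift of phase, a change of amplitude and a change of mean level cannot be told apart, and a phase shift was not tested. In bulk liver, fewer cells of a type and less RNA per cell also cannot be told apart.

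**Figure D2:**
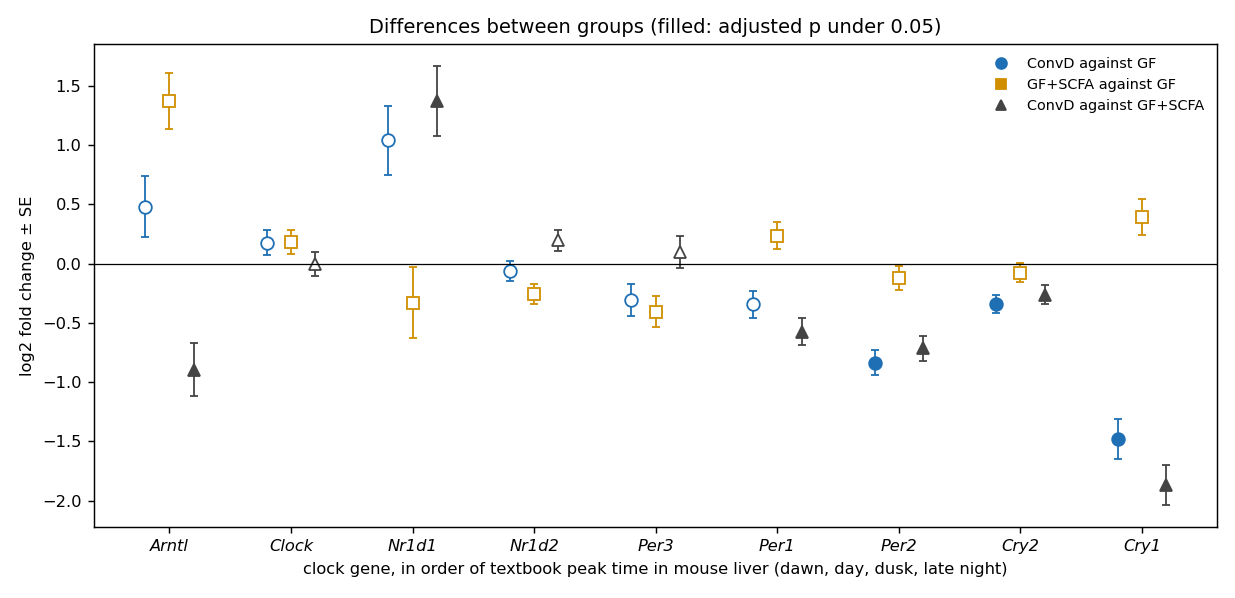
Log2 fold change (vertical axis, ± SE from edgeR's fit to all 9 livers) of the 9 tested clock genes, placed along the horizontal axis in the textbook order of their peak times in mouse liver, for the 3 comparisons; filled symbols have an adjusted p under 0.05. Clock and Cry2, for which the text names no peak time, are placed among them. Between ConvD and GF the highest value is 1.04 for Nr1d1 and the lowest -1.48 for Cry1, and between GF+SCFA and GF no symbol is filled.

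Ratios of 2 transcripts in the same liver set genes of different peak times against each other and do not depend on library scaling. They are log2 ratios of TPM and are described without a test; 3 livers against 3 cannot reach an exact two-sided permutation p below 0.1. The ratio Cry1/Nr1d1 was -1.72, -2.30 and -1.18 in GF, -1.33 to -0.43 in GF+SCFA and -4.86, -4.18 and -3.84 in ConvD. ConvD lay below all other livers, its mean differing by -2.56 from that of GF and by -3.31 from that of GF+SCFA, and GF and GF+SCFA overlapped. The ratio Arntl/Nr1d1 was -5.52, -5.92 and -4.55 in GF, -3.77, -3.97 and -3.04 in GF+SCFA and -6.06, -5.96 and -5.71 in ConvD. Here GF+SCFA lay above all other livers, and GF and ConvD overlapped.

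The ratio Arntl/Per2 had another order, with means of -4.83 ± 0.38 in GF, -3.32 ± 0.22 in GF+SCFA and -3.51 ± 0.06 in ConvD (SD, n = 3). GF lay below all other livers, and GF+SCFA and ConvD overlapped. Arntl/Dbp, which sets Arntl against Dbp, a direct target of ARNTL and CLOCK, was -7.41 ± 0.69 in GF, -5.42 ± 0.20 in GF+SCFA and -7.17 ± 0.04 in ConvD, with GF+SCFA above all other livers. Cry1/Per2 separated all 3 groups, at -1.24 ± 0.22 in GF, -0.71 ± 0.23 in GF+SCFA and -1.89 ± 0.39 in ConvD.

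**Figure D3:**
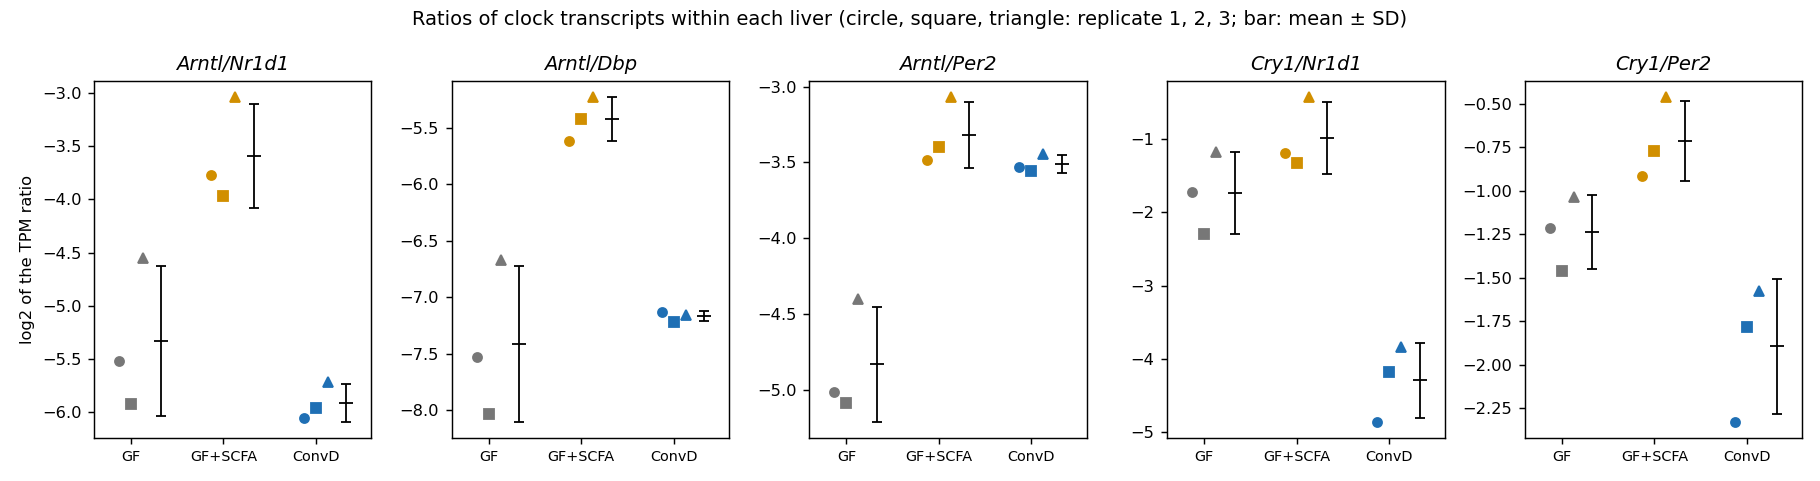
Log2 ratio of TPM of 2 clock transcripts within each liver (vertical axis, a separate scale for each pair; horizontal axis, group; circle, square and triangle are replicates 1, 2 and 3, bars are mean ± SD, n = 3). Cry1/Nr1d1 is lowest in the 3 ConvD livers, Arntl/Nr1d1 is highest in the 3 GF+SCFA livers, and Arntl/Per2 is lowest in the 3 GF livers.

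A single library lay toward another group in several of these genes. GF replicate 3 was the GF liver closest to the GF+SCFA livers in Per1, Per3, Nr1d1, Dbp and Arntl/Nr1d1. In CPM of Clock, Cry1, Cry2 and Nr1d2, another GF liver was closer to the GF+SCFA mean. Without GF replicate 3, edgeR called 3 of the 9 clock genes between GF+SCFA and GF (Arntl and Per1 higher, Per3 lower). The fit called 173 of all tested genes, and with all livers these numbers were 0 and 5. Per1 then had a log2 fold change of 0.40 (adjusted p = 0.0398 by edgeR). Because this liver was singled out by its values in these genes, larger differences in them without it follow in part from that choice. Leaving out GF replicate 3 gave, for ConvD against GF, 4 called clock genes, Per3 being added. The same fit called 1341 of all tested genes, in place of 1544. Nr1d1 stood at 0.83 (adjusted p = 0.104 by edgeR).

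Genes that work with the core loop were examined as a list of 36 clock partners, of which 35 were found and 33 tested. Of these, 1 was higher and 8 were lower in ConvD than in GF, 9 of 33 against 12.8% of all tested genes; the median log2 fold change of the 33 was -0.16. That count was 4 with library totals or with limma on log2 TPM, and 4 to 11 when 1 liver was left out. For GF+SCFA against GF edgeR called 0 of 33 (0.0415% of all tested genes), and DESeq2 called 1. In ConvD against GF+SCFA 3 were higher and 5 lower, against 18.4% of all tested genes.

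Nfil3 encodes a repressor at D-boxes. It was at 9.13, 9.95 and 13 CPM in GF, 11.3, 16 and 26.2 CPM in GF+SCFA and 5.97, 6.79 and 6.43 CPM in ConvD. All 3 ConvD livers lay below the other 6, and GF and GF+SCFA overlapped. Nfil3 was called lower in ConvD than in GF+SCFA (log2 fold change -1.48, adjusted p = 0.0142 by edgeR) and was not called between ConvD and GF (-0.74, adjusted p = 0.162). So Cry1 and Nfil3 each lay lower in all 3 ConvD livers than in every GF liver, whereas Arntl lay higher, and of these only Cry1 was called. Against GF+SCFA, Cry1, Nfil3 and Arntl each lay lower in all 3 ConvD livers without overlap, and each was called lower by edgeR.

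Ccrn4l, which encodes the rhythmic deadenylase-like protein Nocturnin, was at 75.8, 58.2 and 90.8 CPM in GF, 68.8, 77.5 and 86.9 CPM in GF+SCFA and 29, 32.9 and 31.5 CPM in ConvD. All 3 ConvD livers lay below the other 6. It fell in ConvD by 1.27 on the log2 scale against GF (adjusted p = 0.00114 by edgeR) and by 1.32 against GF+SCFA (adjusted p = 0.000498). Usp2, a deubiquitinase under clock control, was at 45 to 50.7 CPM in GF, 49.6 to 63.9 CPM in GF+SCFA and 28.1 to 41.5 CPM in ConvD, and was called lower in ConvD against GF+SCFA (log2 fold change -0.66, adjusted p = 0.00678) and not against GF (-0.43, adjusted p = 0.0574). Sfpq, an RNA-binding protein found in PER complexes, fell against GF (-0.56, adjusted p = 0.00988) and against GF+SCFA (-0.62, adjusted p = 0.00351).

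Dbp, a D-box activator, was at 74.2, 87.6 and 49.2 CPM in GF, 47.2, 47.8 and 40.6 CPM in GF+SCFA and 80.7, 81.9 and 81.7 CPM in ConvD. ConvD lay above all GF+SCFA livers (log2 fold change 0.85, adjusted p = 0.0163 by edgeR) and within the range of GF (0.21, adjusted p = 0.49). Bhlhe41 (DEC2), a repressor at E-boxes, was at 0.543, 1.09 and 0.329 CPM in GF, 0.68, 0.497 and 0.436 CPM in GF+SCFA and 1.7, 2.39 and 1.38 CPM in ConvD. It was higher in all 3 ConvD livers than in the other 6, against GF by 1.48 (adjusted p = 0.0166) and against GF+SCFA by 1.76 (adjusted p = 0.00606) on the log2 scale, at a low level of 7 to 49 counts per liver. Btrc, a subunit of the ubiquitin ligase that marks PER proteins, rose in ConvD against GF+SCFA (0.34, adjusted p = 0.0446) and was not called against GF (0.20, adjusted p = 0.238).

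**Figure D4:**
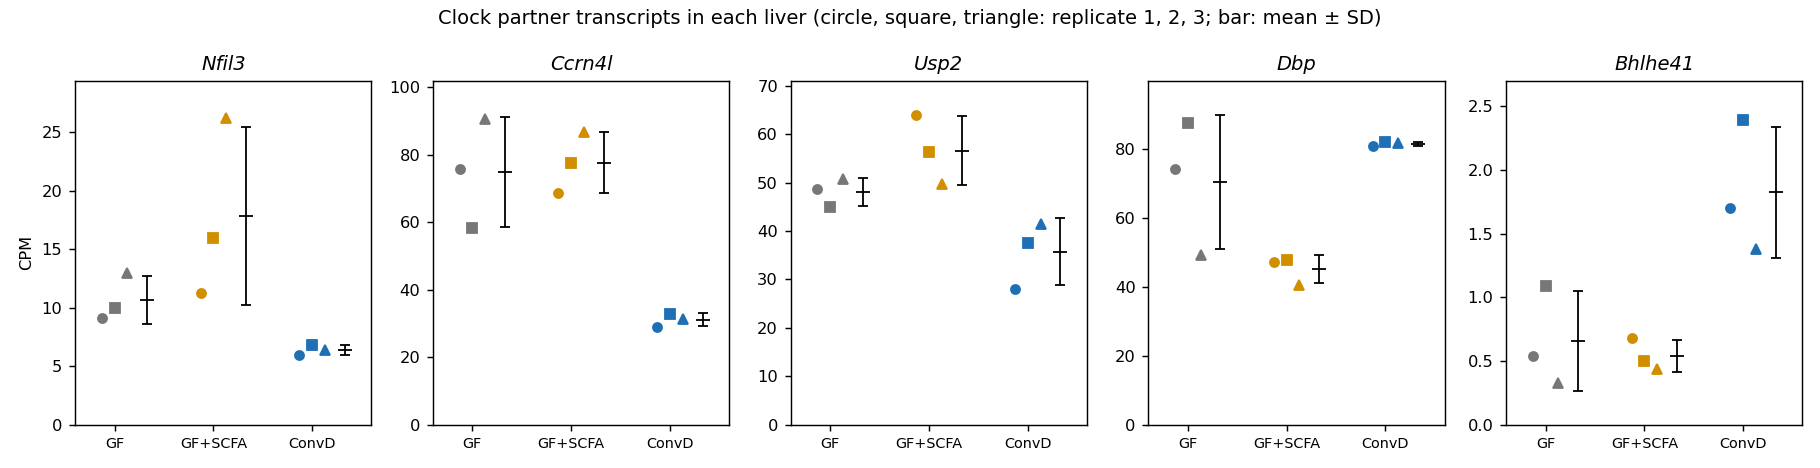
Level of 5 clock partner genes in each of the 9 livers (vertical axis, CPM, a separate scale for each gene; horizontal axis, group; circle, square and triangle are replicates 1, 2 and 3, bars are mean ± SD, n = 3). Nfil3, Ccrn4l and Usp2 lie lower in the 3 ConvD livers than in the other 6, Bhlhe41 lies higher, and Dbp lies lowest in the GF+SCFA livers.

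Lists of genes that answer to signals known to set the liver clock were read beside the clock genes. Of 14 glucocorticoid-responsive genes (Per1 among them), 0 were higher and 6 lower between ConvD and GF, where 5.93% of all tested genes were higher and 6.9% lower. The same counts held between ConvD and GF+SCFA, where 9.44% of all tested genes were higher and 8.97% lower. For GF+SCFA against GF edgeR called 0 (0.0415% of all tested genes). Their median log2 fold change was -0.53 between ConvD and GF, 0.36 between GF+SCFA and GF and -1.15 between ConvD and GF+SCFA, where those of all tested genes were 0.00, -0.01 and 0.01. Tat, a tyrosine-degrading enzyme induced by glucocorticoids, was at 2700 to 3900 CPM in GF, 2950 to 4240 CPM in GF+SCFA and 1300 to 1560 CPM in ConvD (ConvD against GF: -1.14, adjusted p = 0.00153 by edgeR). Tsc22d3 (GILZ) fell between the same groups by 0.68 (adjusted p = 0.00724), Ddit4 by 1.82 (adjusted p = 0.0222) and Fkbp5, a chaperone partner of the glucocorticoid receptor, by 1.08 (adjusted p = 0.0372) on the log2 scale.

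Of 13 temperature-responsive genes, 1 was higher and 4 were lower between ConvD and GF (5 of 13, against 12.8% of all tested genes), and 1 was higher and 5 were lower between ConvD and GF+SCFA (6 of 13, against 18.4%). The one that rose against GF was Cirbp, the cold-inducible RNA-binding protein, at 6.79 to 10.2 CPM in GF, 7.35 to 9.81 CPM in GF+SCFA and 13.4 to 14.9 CPM in ConvD (0.72, adjusted p = 0.00547 by edgeR). Among those that fell were the heat-shock genes Hspa8 (-0.77, adjusted p = 0.000687), Dnaja1 (-0.53, adjusted p = 0.00289) and Hsph1 (-1.90, adjusted p = 0.0221). Of 14 feeding and fasting genes, 1 was higher and 2 were lower between ConvD and GF (3 of 14, against 12.8% of all tested genes), and 1 was higher and 4 were lower between ConvD and GF+SCFA (5 of 14, against 18.4%). Pck1, the gluconeogenic enzyme, was at 3560 to 4150 CPM in GF, 3390 to 3970 CPM in GF+SCFA and 1920 to 2280 CPM in ConvD, and fell against GF by 0.88 on the log2 scale (adjusted p = 0.00018 by edgeR). Foxo1, a transcription factor of fasting, fell by 0.74 (adjusted p = 0.00018), and Pnpla3, a lipid droplet protein raised by feeding, rose by 3.27 (adjusted p = 0.0039) from a level of 0.163 to 0.329 CPM in GF. Of 20 metabolic genes under clock control, 2 were higher and 6 lower between ConvD and GF (8 of 20, against 12.8% of all tested genes), and 2 were higher and 5 lower between ConvD and GF+SCFA (7 of 20, against 18.4%). Against GF, Por, the electron donor of cytochromes P450, fell by 0.97 (adjusted p = 5.05e-05), Dgat2, an enzyme of triglyceride synthesis, by 0.50 (adjusted p = 0.000854) and Nr1i3, the nuclear receptor CAR, by 0.60 (adjusted p = 0.00252) on the log2 scale. Tars, a transfer RNA synthetase, rose by 0.50 (adjusted p = 0.00176). None of the genes of these 3 lists was called between GF+SCFA and GF (0 of 13, 14 and 20), where 0.0415% of all tested genes were called. The part of these signals in the clock gene differences was not tested.

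Markers of other cells also differed between groups. The summed level of 10 hepatocyte markers was 112000 to 128000 CPM in GF, 107000 to 125000 in GF+SCFA and 108000 to 133000 in ConvD. Most of this sum was Alb, at 70700 to 101000 CPM over the livers. Of the 10 markers, 1 was called higher and 2 lower between ConvD and GF (12.8% of all tested genes called). Between ConvD and GF+SCFA 1 was higher and 4 were lower (18.4% of all tested genes called). The sum of 9 Kupffer cell markers was 247 to 304 CPM in GF, 277 to 342 in GF+SCFA and 340 to 515 in ConvD, with 5 of 9 called higher between ConvD and GF (5.93% of all tested genes). The sum of 6 neutrophil markers was 0.594 to 0.986 CPM in GF, 0.199 to 0.624 in GF+SCFA and 7.02 to 12.2 in ConvD, with Ltf, Camp and Mpo at 0 in GF and in GF+SCFA, and Ngp also at 0 in GF+SCFA. Beside the higher Arntl of the GF+SCFA livers, the sum of 5 biliary markers was 24.6 to 29.2 CPM in GF+SCFA, below the 41.7 to 47.7 of GF and the 40.3 to 62.6 of ConvD. That of 6 stellate cell markers was 211 to 248, below the 254 to 281 of GF and the 273 to 281 of ConvD. Spp1 made up most of the biliary sum (21.9 to 26 CPM in GF+SCFA), and Dcn most of the stellate sum (122 to 135 CPM). Between GF+SCFA and GF, 0 of 5 biliary and 1 of 6 stellate markers were called lower (0.0332% of all tested genes). Groups did not overlap, GF+SCFA being lower, for 4 of the 5 and 2 of the 6 (8.86% of all tested genes). The stellate marker Lrat had a mean of 25.5 CPM in GF+SCFA and 23.4 CPM in GF. The sum of 4 B cell markers was 1.58 to 1.9 CPM in GF, 0.794 to 1.36 in GF+SCFA and 3.03 to 3.17 in ConvD, and that of 3 erythroid markers was 229 to 322, 208 to 303 and 275 to 870 CPM. Their part in the clock gene differences was not tested.

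Among 9889 other genes with a mean of at least 50 counts, the closest to a clock gene were those with the smallest root mean square difference of log2 CPM over the 9 livers, each gene centred on its own mean. For Cry1, whose own values had a root mean square of 0.83, they were Lonrf3 (0.23), Ccrn4l (0.29) and Tmc7 (0.31). For Per2 (0.39) they were Smarca2 (0.10), Marveld1 (0.10) and 5430407P10Rik (0.11). For Nr1d1 (0.68) they were Arsa (0.21), Acpp (0.24) and Rps6ka1 (0.25), and for Arntl (0.57) Thrsp (0.25), Slc45a3 (0.30) and Aatk (0.32). Ccrn4l is thus the only clock partner among these 12 nearest genes.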

How the data were processed

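Polyadenylated liver RNA was sequenced in 9 samples, 3 per group. The library kit was TruSeq Stranded mRNA, per the labels' protocols. Reads were aligned and quantified by the authors on mm9 with tools that the submitters' processing notes list as RSEM 1.2.23 and Bowtie2. The deposited tables hold expected counts, TPM and FPKM per gene symbol; per the file headers TPM and FPKM are normalised by the authors for length and depth, and FPKM was not used. Expected counts, which divide reads shared by several genes, were rounded, and edgeR 4.0.16 was run on them under R 4.3.3 (filterByExpr with a minimum count of 10, TMM scaling, robust quasi-likelihood fit of all 9 samples with 6 residual degrees of freedom, Benjamini-Hochberg adjustment over 12037 genes, common biological coefficient of variation 10.6%). The script was tested on simulated data. Alternatives were other scalings, no filter, DESeq2 1.42.0, limma 3.58.1 on log2(TPM + 0.1), fits of 2 groups, a replicate block, and leaving out each liver. Samples were grouped by their labels, and replicate numbers were not taken to pair livers. Promoter windows come from RefSeq on GRCm38.p6, and gene overlaps from the GENCODE annotation of the same build, both matched by symbol.

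The clock genes and the gene lists were chosen with earlier results of these data known. All 10 clock genes are named, with Dbp for a ratio; from the partner and signal lists, called members among the 4 with the smallest adjusted p between ConvD and GF and, for partners, up to 4 called in another comparison (marker lists are given as sums); and the 3 nearest genes of Arntl, Cry1, Per2 and Nr1d1. Thra was added after its overlap with Nr1d1 was seen. One gene of the clock partner list is counted but not reported here by name.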

Additional observations from a re-analysis of the deposited data

How the results depend on the processing

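The 17 alternatives gave 459 readings of the 9 tested clock genes in the 3 comparisons. Of these, 422 kept their direction and their side of the threshold, 15 lost a call, 13 gained one and 9 changed sign. Calls could be lost only by the 3, 0 and 6 genes called in the main fit, so many of the 422 were uncalled throughout. Cry1 and Per2 stayed called in both ConvD comparisons, and Per1 between ConvD and GF+SCFA, in all 17 alternatives. Between ConvD and GF, 1544 genes were called, 972 by limma on TPM and 849 to 1466 with 1 liver left out; clock partners numbered 9, with 4 under library totals, 4 by limma and 4 to 11 with 1 liver left out; clock genes numbered 3, and 2 to 4 with 1 liver left out. Between GF+SCFA and GF, the 5 genes called became 9 with library totals, 82 with DESeq2, 24 with no filter, 1 by limma and 0 to 173 with 1 liver left out; the 0 clock genes became 1 with DESeq2, 1 with no filter and 0 to 3 with 1 liver left out, and the 0 partners 1 with DESeq2 and 0 to 2. Between ConvD and GF+SCFA, leaving out 1 liver gave 1383 to 2393 genes, 4 to 6 clock genes and 5 to 10 partners. Signs turned for Nr1d2 between ConvD and GF (0.015 with library totals, 0.0022 by limma) and for Clock between ConvD and GF+SCFA (0.051 with upper-quartile factors, 0.065 with library totals, 0.086 by limma, -0.099 to 0.052 with 1 liver left out). Nr1d1 between ConvD and GF was called with library totals (adjusted p = 0.0491), in an edgeR fit of those 2 groups (0.0418) and without GF+SCFA replicate 2 (0.0481) or 3 (0.0343). Livers with the same replicate number correlated at -0.0625 to 0.126 in their deviations from the group means. Of the 9 livers, 6 correlated best with a liver of their own number. The range for livers of different numbers is not given here, so these values do not decide whether the numbers mark pairs. The numbers were not taken as pairs because the labels do not state a pairing. With the replicate block, edgeR called 4 clock genes between ConvD and GF (Nr1d1 added, 1.08, adjusted p = 0.00158), 0 between GF+SCFA and GF and 6 between ConvD and GF+SCFA, with 1514, 5 and 2195 of all tested genes called. The cause of these changes was not tested. Arntl (12 to 40 counts per liver) and Npas2 (0 to 5) are limited by depth.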

Other observations

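The livers numbered 3 had the highest log2 TPM ratio of their group in each of the 3 groups for Cry1/Nr1d1 (-1.18 in GF, -0.43 in GF+SCFA, -3.84 in ConvD), for Cry1/Per2 (-1.03, -0.46 and -1.58), for Arntl/Nr1d1 (-4.55, -3.04 and -5.71) and for Arntl/Per2 (-4.40, -3.07 and -3.44), but not for Arntl/Dbp. The labels do not say that a replicate number marks a shared day or order of dissection.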
